A study of Mus musculus with 12 samples.

Results

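The genes described here are those of DNA repair and of the checkpoint that watches over replication, in mouse primary acute myeloid leukaemia cells. They were taken from a list of 45 gene symbols, and a gene was a member where its mean over the 12 libraries was at least 1 FPKM, the unit of the table (fragments per kilobase of transcript, scaled to the mapped fragments of the library). Of the 45 genes, 33 passed and 12 did not, out of 10305 genes that passed in the whole table of 23234. This limit used the mean level over all libraries and no comparison between groups. The list itself was chosen with earlier results of these data known. Closest to the limit were Fancc with 1.14 FPKM and Xrcc2 with 1.16 FPKM inside it, and Palb2 with 0.975 FPKM and Fancd2 with 0.828 FPKM outside it. A gene that is high with DMSO alone can pass this limit through that group. The 6 genes Brca1, Rad54l, Xrcc2, Fancc, Ung and Clspn had a mean under 1 FPKM in at least 1 group, and the other 27 of the 33 were at 1 FPKM or more in all 4 groups.

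All cells carried the mutant RAS allele NRASG12V and the fusion gene Mll-AF9, on an F1 background of the strains FVB/n and C57/BL/6J. They were kept for 24 h in RPMI medium with 10% serum and 1 ng/ml of the growth factor GM-CSF. One group received 20 µM PD325901, an inhibitor of the MEK kinases that activate ERK, one 26 µM RAD001, an inhibitor of mTOR complex 1, and one 20 µM GDC0941, an inhibitor of PI3 kinase. The fourth received the vehicle DMSO, and each of the 4 groups had 3 libraries of total RNA. The labels give 1 dose and 1 time per inhibitor, no group with normal cells, and no statement of how many leukaemias or cultures the libraries came from. The p-values therefore measure only the spread between these libraries, which may be technical.

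Cells repair broken DNA either by copying an intact sister strand, in homologous recombination, or by rejoining the ends directly. The Fanconi anaemia proteins act where replication meets crosslinked strands, mismatch repair corrects copying errors, and base excision repair removes single damaged bases and seals nicks. The kinases ATM and ATR sense breaks and stalled replication forks and pass the signal to CHK2 and CHK1, with TOPBP1, Claspin, Timeless and Tipin as activators and mediators at the fork. Many of these genes are transcribed mainly in S phase, from promoters that bind E2F factors or the CCAAT-binding factor NF-Y.

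The promoters of 6 members are shown. Fancg, Chek2, Topbp1 and Xrcc6 were taken because an E2F string, defined below, lies in the stretch printed. Clspn and Xrcc1 were added by name. The presence of the E2F string in the genes shown is therefore not a result. Each line gives the 170 bases before the start of the gene, 5′ to 3′ on the gene's strand, from RefSeq on build GRCm38.p6, which is not the build on which the expression values were made. Capitals mark an E2F string (TTTGGCGC, TTTCGCGC or TTTCCCGC) or CCAAT, on either strand. Clspn and Topbp1 were lower with every inhibitor, Fancg with RAD001 and GDC0941, Chek2 with RAD001 and Xrcc6 with PD325901 and RAD001, while Xrcc1 was higher with PD325901 and lower with RAD001.
Fancg (chr4:43010302-43010471, minus strand): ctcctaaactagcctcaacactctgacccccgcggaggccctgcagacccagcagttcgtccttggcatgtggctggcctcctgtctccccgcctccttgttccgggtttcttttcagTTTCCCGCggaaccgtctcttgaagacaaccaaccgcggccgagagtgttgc
Clspn (chr4:126556810-126556979, plus strand): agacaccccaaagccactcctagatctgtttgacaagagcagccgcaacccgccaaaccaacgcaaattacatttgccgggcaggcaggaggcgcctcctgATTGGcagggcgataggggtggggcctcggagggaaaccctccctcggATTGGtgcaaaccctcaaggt
Chek2 (chr5:110839813-110839982, plus strand): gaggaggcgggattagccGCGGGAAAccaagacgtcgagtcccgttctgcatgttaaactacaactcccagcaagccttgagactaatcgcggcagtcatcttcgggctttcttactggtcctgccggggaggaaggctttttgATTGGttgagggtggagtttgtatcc
Xrcc1 (chr7:24546529-24546698, plus strand): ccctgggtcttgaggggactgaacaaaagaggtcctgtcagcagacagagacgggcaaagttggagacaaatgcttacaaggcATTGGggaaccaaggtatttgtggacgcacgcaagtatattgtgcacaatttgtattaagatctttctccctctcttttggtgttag
Topbp1 (chr9:103305157-103305326, plus strand): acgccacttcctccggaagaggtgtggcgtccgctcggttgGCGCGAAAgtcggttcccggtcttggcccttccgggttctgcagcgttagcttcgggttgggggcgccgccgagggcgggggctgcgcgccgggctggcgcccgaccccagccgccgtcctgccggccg
Xrcc6 (chr15:82016199-82016368, plus strand): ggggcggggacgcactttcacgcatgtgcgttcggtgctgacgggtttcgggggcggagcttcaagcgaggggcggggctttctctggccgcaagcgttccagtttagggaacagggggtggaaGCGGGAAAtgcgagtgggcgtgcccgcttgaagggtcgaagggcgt

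Over the whole window of that table (250 bases before the start and 50 after it), an E2F string was present in 8 of the 37 listed genes with an entry (21.6%), against 2.12% of all 27025 genes. The 8 were Bard1, Brca2, Chek2, Clspn, Fancg, Msh6, Topbp1 and Xrcc6. The string of Clspn and that of Msh6 lie after the start, outside any stretch printed here. CCAAT was present in 22 of 37 (59.5%, against 41.1% of all genes), the cell cycle element CHR (TTTGAA) in 2 of 37 (5.41%, against 20.2%), and the E-box CACGTG in 3 of 37 (8.11%, against 8.09%). Both strands were searched, and none of these strings contains another. All genes here are those with a promoter entry, tested or not, and their base composition was not matched to that of the listed genes. Of the 12 members with an entry that were lower with every inhibitor 3 held an E2F string, and of the 15 other tested members with an entry 3 did. Xrcc2, Rad50, Nbn, Rbbp8, Exo1, Fancd2, Prkdc and Tipin had no entry in the promoter table used here.

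Absolute depth was unknown, since the table gives FPKM and no counts. Relative depth, estimated as the commonest ratio among values under 0.1 FPKM, was 0.846 to 1.21 times that of DMSO replicate 1. Across genes, libraries of a group correlated at Spearman values of 0.966 to 0.996, and those of different groups at 0.875 to 0.965. In every group replicates 2 and 3 were the closest pair (0.995, 0.996, 0.987 and 0.996 with PD325901, RAD001, GDC0941 and DMSO). The highest value of replicate 1 in its group was 0.985, 0.973, 0.971 and 0.979 in that order. The spread within a group is therefore largely replicate 1 against the other libraries. GDC0941 replicate 1 stood apart for cell cycle genes. Its 29 tested DNA replication genes summed to 491 FPKM, against 292 and 321 FPKM in the other GDC0941 libraries and 574, 667 and 662 FPKM with DMSO, and its 33 repair and checkpoint genes to 170 FPKM, against 129 and 124 FPKM and, with DMSO, 188, 210 and 210 FPKM. RAD001 replicate 1 lay to the same side, with 107 FPKM summed over 23 mitosis genes against 52.3 and 49.7 FPKM in the other RAD001 libraries. In the PD325901 and DMSO groups that sum was instead lowest in replicate 1. It was 113 against 121 and 133 FPKM with PD325901, and 292 against 301 and 310 FPKM with DMSO. Of the myeloid markers Ptprc, Itgam, Csf1r and Cd68 were at 91.3 FPKM or more in every library, Mpo was at 1.03 to 23.8 FPKM, and Lyz2 was listed at 0 throughout. Spi1, also on that list, had no entry. By limma Mpo fell with RAD001 (log2 change -3.07) and GDC0941 (-2.29). Itgam fell with PD325901 (-0.56) and rose with RAD001 (1.27) and GDC0941 (0.67). Csf1r and Ptprc rose with PD325901 (0.68 and 0.50) and RAD001 (0.85 and 0.47), and Cd68 rose with PD325901 (0.48). The other changes of these 5 genes against DMSO did not pass. Lists of 5 markers for other cell types were summed in each library. The T and NK cell list summed to 4.47 to 7.24 FPKM with PD325901, 0.158 to 2.12 with RAD001, 0 to 1.21 with GDC0941 and 0.171 to 4.03 with DMSO, and the B cell list to 6.76 to 8.13, 0.961 to 2.13, 0.643 to 2.23 and 4.59 to 5.96 FPKM in the same order. The megakaryocyte list summed to 10.9 to 35.6 FPKM with PD325901, 215 to 278 with RAD001, 3.72 to 4.76 with GDC0941 and 77.1 to 133 with DMSO, nearly all of it the platelet gene Pf4, and the stromal and endothelial list to 7.42 to 10.8, 6.96 to 8.37, 1.94 to 2.62 and 12.8 to 17.5 FPKM. The erythroid list stayed at 3.32 FPKM or less in every library. In each of the T and NK cell, B cell, megakaryocyte and stromal lists 1 gene reached the limit of 1 FPKM and was tested by limma. Cd3d rose with PD325901 (log2 change 1.27), Cd79b fell with RAD001 (-1.39) and GDC0941 (-1.49), Pf4 fell with PD325901 (-2.50) and GDC0941 (-4.23) and rose with RAD001 (1.35), and Pecam1 fell with all 3 (-0.65, -0.85 and -2.31 with PD325901, RAD001 and GDC0941). The B cell gene Pax5 was listed at 0 and the T cell gene Cd8a stayed under 0.23 FPKM in every library. The part of these cell types, and of the shifts in myeloid markers, in the changes of the repair genes was not tested.

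More of the tested repair and checkpoint genes fell than rose with each inhibitor against DMSO, and the same 14 fell with all 3. The share of all genes that fell with all 3 is not given here, so the 14 stand without a background. By limma, with p adjusted over all 10305 genes and a threshold of 0.05, 19 of 33 fell and 1 rose with PD325901, where 28.2% of all genes fell and 18.4% rose. With RAD001 22 of 33 fell and 0 rose (all genes 15.9% and 15.4%); 1 gene, Fance, was higher at an unadjusted p under 0.05, Lig3 was higher after quantile normalization, and both were with library weights. With GDC0941 16 of 33 fell and 1 rose (all genes 12.7% and 11.6%). Of the 27 genes at 1 FPKM or more in all 4 groups, 14 fell and 1 rose with PD325901, 17 fell and 0 rose with RAD001, and 11 fell and 1 rose with GDC0941, and 9 of the 14 shared genes were among these 27. The median log2 change of the 33 was -0.45 with PD325901, -0.72 with RAD001 and -0.38 with GDC0941, where that of all genes was -0.06, 0.00 and 0.02. After quantile normalization the calls over all genes with PD325901 were 2675 higher and 2455 lower, where the deposited values gave 1893 and 2909, and those of the 33 were 1 higher and 18 lower. The 3 comparisons share the DMSO libraries, so they are not independent of each other. RNA came from whole cultures, so fewer cells in S phase and less RNA per cell cannot be told apart.

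**Figure D1:**
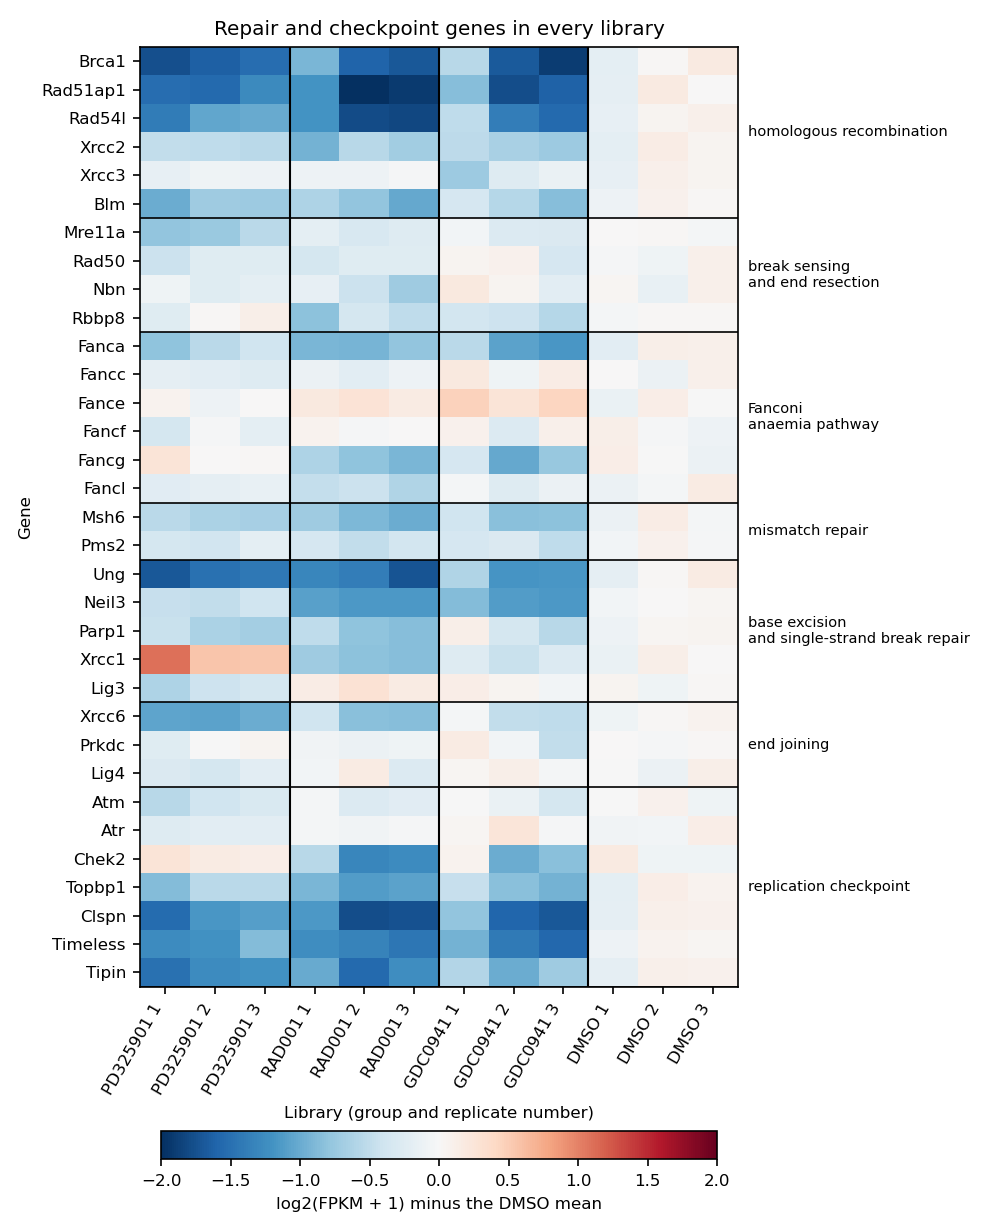
Difference of each of the 33 tested genes from its DMSO mean, on the scale of log2(FPKM + 1), in the 3 libraries of each group (columns) and by repair pathway (rows); blue is lower, red is higher, and the colours end at -2 and 2. Brca1, Rad51ap1, Rad54l, Ung, Clspn, Timeless and Tipin are blue in all 9 inhibitor libraries and, among the GDC0941 libraries, palest in replicate 1; of the inhibitor columns Xrcc1 is red in those of PD325901 only.

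Log2 changes below are differences of the mean log2(FPKM + 1) ± SE from limma, which understate the change of low genes, and levels are FPKM as mean ± SD with n = 3. Every adjusted p is by limma with the Benjamini-Hochberg method.

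Homologous recombination genes were lower with every inhibitor in 5 of 6 tested members, Brca1, Rad51ap1, Rad54l, Xrcc2 and Blm, and the count was the same for PD325901, RAD001 and GDC0941. Brca1, Rad54l and Xrcc2 averaged under 1 FPKM in at least 1 inhibitor group and passed the limit through groups in which they were higher, while Rad51ap1 and Blm were at 1 FPKM or more in all 4 groups. Brca1, whose protein brings the recombination machinery to a resected break, had 0.572, 0.709 and 0.846 FPKM with PD325901, 1.81, 0.757 and 0.649 FPKM with RAD001, 2.63, 0.659 and 0.429 FPKM with GDC0941, and 3.63, 4.40 and 5.01 FPKM with DMSO. Replicate 1 was the highest library of both the RAD001 and the GDC0941 group, and no inhibitor library reached the lowest DMSO library. The log2 change of Brca1 was -1.64 ± 0.31 with PD325901 (adjusted p = 0.00136), -1.40 ± 0.31 with RAD001 (adjusted p = 0.00579) and -1.38 ± 0.31 with GDC0941 (adjusted p = 0.00819), by limma. Without GDC0941 replicate 1 the last became -1.79.

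Rad51ap1, an accessory factor of strand exchange, had 1.33, 1.29 and 1.78 FPKM with PD325901, 1.94, 0.521 and 0.785 FPKM with RAD001, 2.71, 0.961 and 1.20 FPKM with GDC0941, and 4.91, 6.59 and 5.77 FPKM with DMSO. Its log2 changes were -1.45 ± 0.27, -1.75 ± 0.27 and -1.42 ± 0.27 with PD325901, RAD001 and GDC0941 (adjusted p = 0.00114, 0.000746 and 0.00332 by limma). Rad54l, a motor protein that acts in strand invasion, had 1.12, 1.72 and 1.78 FPKM with PD325901, 1.45, 0.617 and 0.578 FPKM with RAD001, 2.95, 1.16 and 0.898 FPKM with GDC0941, and 4.0, 4.84 and 5.01 FPKM with DMSO. For both genes every inhibitor library lay below every DMSO library. Exons of Rad54l overlap Lrrc41 on the other strand by 128 bases in the GENCODE annotation, and whether strand was used in counting is not given in the sources used here, so reads of such pairs cannot be told apart.

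The helicase gene Blm and Xrcc2, a recombination mediator gene, also fell with each inhibitor. Blm averaged 1.52 ± 0.262 FPKM with PD325901, 1.53 ± 0.354 with RAD001, 1.97 ± 0.514 with GDC0941 and 3.41 ± 0.294 with DMSO, log2 changes of -0.81, -0.81 and -0.59. The GDC0941 call of Blm ended without GDC0941 replicate 3 or DMSO replicate 2 or 3 (highest adjusted p = 0.0605 by limma). Xrcc2 changed by -0.51, -0.73 and -0.63. Xrcc3, another mediator gene, passed with none of them and averaged 2.14 ± 0.0854, 2.22 ± 0.104 and 1.66 ± 0.545 FPKM, against 2.41 ± 0.327 FPKM with DMSO. The GDC0941 change of Xrcc3 (-0.38, adjusted p = 0.0772 by limma) passed under 4 of its 15 alternatives, with the replicate block, with library weights, without GDC0941 replicate 3 and without replicate 1 of every group.

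Of the listed recombination genes under 1 FPKM, Brca2, a mediator of strand exchange, had 0.301, 0.346 and 0.347 FPKM with PD325901, 0.401, 0.255 and 0.223 FPKM with RAD001, 0.565, 0.372 and 0.228 FPKM with GDC0941, and 0.730, 0.849 and 0.802 FPKM with DMSO. No inhibitor library overlapped the DMSO libraries. Genes under the limit were tested only in a limma fit without it, over 16474 genes. Of these, 3077 were lower and 2256 higher with PD325901, 1813 and 1532 with RAD001, and 1505 and 1117 with GDC0941. There Brca2 passed with each inhibitor (log2 changes -0.43, -0.47 and -0.38, adjusted p = 0.00270, 0.00294 and 0.0117 by limma). Bard1, the partner of BRCA1, averaged 0.687 ± 0.0857 FPKM with PD325901, 0.375 ± 0.106 with RAD001, 0.447 ± 0.239 with GDC0941 and 1.48 ± 0.294 with DMSO and passed with all 3 as well. Palb2, which links BRCA1 to BRCA2, averaged 1.10 ± 0.156, 0.560 ± 0.0473 and 0.677 ± 0.195 FPKM with PD325901, RAD001 and GDC0941, against 1.56 ± 0.255 FPKM with DMSO, and passed with RAD001 and GDC0941 (PD325901 adjusted p = 0.0577 by limma). It was higher with PD325901 than with RAD001 (0.43 ± 0.10, adjusted p = 0.00736 by limma) and than with GDC0941 (0.33 ± 0.10, adjusted p = 0.0265).

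Of the 4 tested genes that sense breaks and trim their ends, 1 fell with PD325901 (Mre11a), 2 with RAD001 (Nbn and Rbbp8) and 1 with GDC0941 (Rbbp8). The shares of all genes that fell were 28.2%, 15.9% and 12.7% in that order. Mre11a, the nuclease of the MRN complex, had 3.57, 3.73 and 4.46 FPKM with PD325901, 5.96, 5.32 and 5.60 FPKM with RAD001, 6.62, 5.52 and 5.48 FPKM with GDC0941, and 6.95, 7.08 and 6.75 FPKM with DMSO. The PD325901 libraries lay below all others. The log2 change with PD325901 was -0.69 ± 0.10 against DMSO (adjusted p = 2e-04), -0.43 ± 0.10 against RAD001 (adjusted p = 0.00306) and -0.48 ± 0.10 against GDC0941 (adjusted p = 0.00144), by limma. The changes of Mre11a with RAD001 (-0.26) and GDC0941 (-0.21) against DMSO did not pass, but the RAD001 change did under 5 of the 16 alternatives run and the GDC0941 change did without GDC0941 replicate 1 (-0.29, adjusted p = 0.0429 by limma) and without replicate 1 of every group. Mre11a shares 104 exon bases with Ankrd49 on the other strand.

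Rbbp8 encodes CtIP, the cofactor that starts resection. It had 7.22, 8.85 and 9.52 FPKM with PD325901, 4.50, 6.62 and 5.84 FPKM with RAD001, 6.48, 6.25 and 5.52 FPKM with GDC0941, and 8.45, 8.83 and 8.81 FPKM with DMSO. The RAD001 and GDC0941 libraries lay below every DMSO and every PD325901 library. Rbbp8 was lower with RAD001 than with DMSO by limma (-0.56 ± 0.13, adjusted p = 0.00719), and higher with PD325901 than with RAD001 (0.52 ± 0.13, adjusted p = 0.00531) and than with GDC0941 (0.42 ± 0.13, adjusted p = 0.0163). Its fall with GDC0941 (-0.46 ± 0.13, adjusted p = 0.0239) ended without GDC0941 replicate 2 or 3 or DMSO replicate 2 or 3 (highest adjusted p = 0.0791 by limma). The difference between PD325901 and GDC0941 ended without PD325901 replicate 2 or 3 or GDC0941 replicate 3 (highest adjusted p = 0.0695). Rbbp8 shares 264 exon bases with AC090479.2 on the other strand.

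Nbn, the adaptor of the MRN complex that recruits ATM, averaged 5.75 ± 0.373, 4.71 ± 1.07 and 6.75 ± 1.09 FPKM with PD325901, RAD001 and GDC0941 and 6.63 ± 0.663 FPKM with DMSO. Its fall with RAD001 (-0.43 ± 0.14, adjusted p = 0.0401 by limma) ended in 6 of the 16 alternatives, among them those without RAD001 replicate 2 or 3 or DMSO replicate 1 or 3 (highest adjusted p = 0.156). Rad50, the tether of the same complex, passed in no comparison with DMSO, with 4.12 ± 0.389, 4.20 ± 0.213 and 5.10 ± 0.930 FPKM with the inhibitors and 5.32 ± 0.405 FPKM with DMSO. Exo1, the exonuclease that extends resection and lies under the limit, averaged 0.281 ± 0.0507, 0.164 ± 0.0581 and 0.333 ± 0.199 FPKM with PD325901, RAD001 and GDC0941, against 1.22 ± 0.111 FPKM with DMSO. In the fit without the limit it passed with each (log2 changes -0.79, -0.93 and -0.74).

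**Figure D2:**
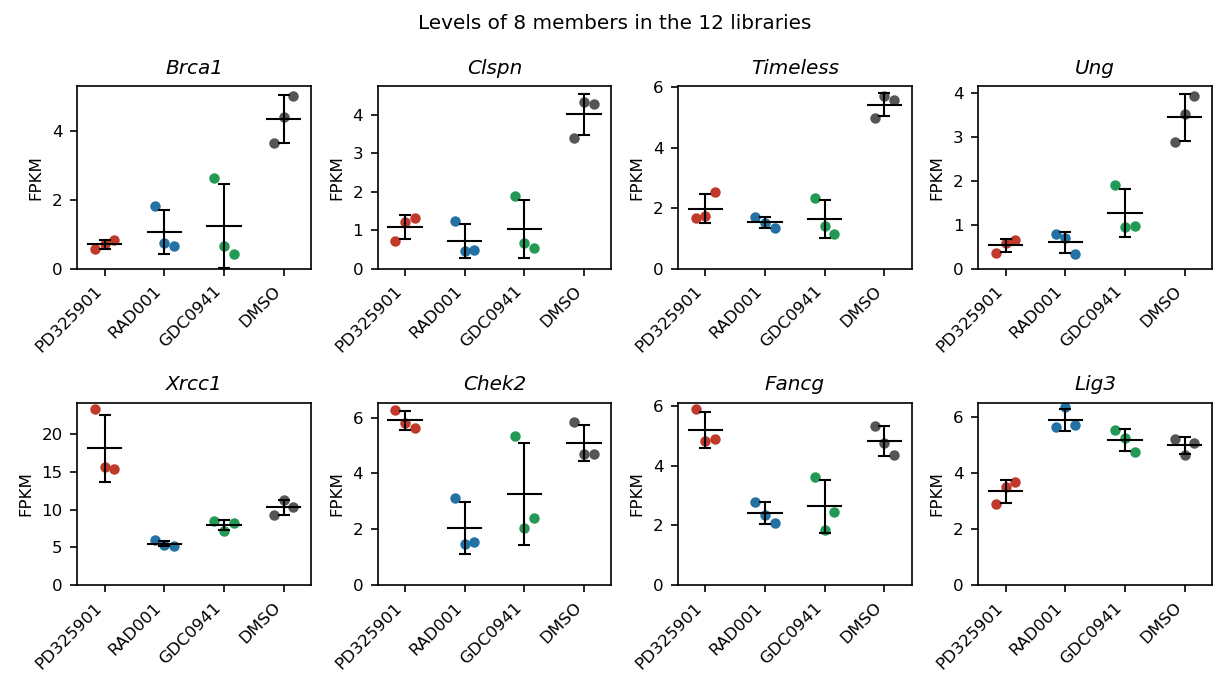
FPKM of 8 genes in the 3 libraries of each group (points), with the mean (line) and SD (bars). Brca1, Clspn, Timeless and Ung are below DMSO in every inhibitor library, Xrcc1 is high with PD325901, Chek2 and Fancg with PD325901 lie near DMSO and above RAD001, and Lig3 is low with PD325901.

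Of the 6 tested members of the Fanconi anaemia pathway 1 was lower with PD325901 (Fanca), where 28.2% of all genes were lower. With RAD001 3 were lower (Fanca, Fancg and Fancl), where 15.9% of all genes were. With GDC0941 2 were lower (Fanca and Fancg) and 1 higher (Fance), where 12.7% and 11.6% of all genes were. Fanca, a subunit of the core complex that ubiquitinates FANCD2, had 2.29, 2.96 and 3.37 FPKM with PD325901, 2.06, 2.01 and 2.33 FPKM with RAD001, 2.97, 1.73 and 1.56 FPKM with GDC0941, and 3.95, 5.21 and 5.19 FPKM with DMSO, with no overlap. Its log2 changes were -0.58 ± 0.17, -0.88 ± 0.17 and -0.93 ± 0.17 (adjusted p = 0.0160, 0.00301 and 0.00302 by limma). The PD325901 call ended without PD325901 replicate 1 or DMSO replicate 2 or 3 (highest adjusted p = 0.0639). Fanca shares 552 exon bases with Zfp276 on the other strand.

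Fancg, another core subunit, had 5.90, 4.82 and 4.87 FPKM with PD325901, 2.80, 2.34 and 2.08 FPKM with RAD001, 3.61, 1.85 and 2.44 FPKM with GDC0941, and 5.33, 4.76 and 4.35 FPKM with DMSO. The RAD001 and GDC0941 libraries lay below all others, and the PD325901 and DMSO libraries overlapped. Against DMSO the log2 change was 0.09 with PD325901 (95% interval -0.26 to 0.45), -0.77 ± 0.16 with RAD001 (adjusted p = 0.00449) and -0.70 ± 0.16 with GDC0941 (adjusted p = 0.00927), by limma. Fancg was higher with PD325901 than with RAD001 by 0.86 ± 0.16 (adjusted p = 0.00105) and than with GDC0941 by 0.79 ± 0.16 (adjusted p = 0.00170), by limma, and these 4 calls held in the 15 alternatives that could be run for it.

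Fancl, the ubiquitin ligase of the complex, had 5.21, 5.45 and 5.55 FPKM with PD325901, 4.22, 4.43 and 3.83 FPKM with RAD001, 6.13, 5.11 and 5.76 FPKM with GDC0941, and 5.70, 6.11 and 7.14 FPKM with DMSO. The RAD001 libraries lay below every other library, and the fall with RAD001 was -0.50 ± 0.10 (adjusted p = 0.00285 by limma). Fancl shares 462 exon bases with Vrk2 on the other strand. Fance, which joins the core complex to FANCD2, had 8.68, 7.38 and 8.46 FPKM with GDC0941 and 5.45, 6.74 and 6.00 FPKM with DMSO, a rise of 0.38 ± 0.09 (adjusted p = 0.0133 by limma). With PD325901 it had 6.41, 5.57 and 6.05 FPKM and with RAD001 7.10, 7.54 and 6.93 FPKM. The rise with GDC0941 ended with only the 2 groups compared (adjusted p = 0.0658 by limma), without DMSO replicate 1 (0.0504) and without replicate 1 of every group. Fancc and Fancf passed with no inhibitor against DMSO, at 0.915 to 1.38 and 1.80 to 2.23 FPKM on average in the 4 groups.

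Fancd2, the protein that the core complex modifies, was under the limit, with 0.591, 0.578 and 0.849 FPKM with PD325901, 0.610, 0.229 and 0.231 FPKM with RAD001, 1.17, 0.267 and 0.176 FPKM with GDC0941, and 1.90, 1.88 and 1.46 FPKM with DMSO. Its highest inhibitor library was GDC0941 replicate 1, and none overlapped DMSO. In the fit without the limit Fancd2 passed with all 3 (log2 changes -0.71, -1.02 and -0.89, adjusted p = 0.0250, 0.00736 and 0.0178 by limma), and so did its partner Fanci (-0.75, -0.99 and -0.82), the helicase gene Brip1 (-0.67, -0.92 and -0.72), the core subunit gene Fancb (-0.56, -0.61 and -0.50) and the translocase gene Fancm (-0.56, -0.60 and -0.55). Fancd2 shares 256 exon bases with Fancd2os and Fanci 665 with Polg, both on the other strand.

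Both mismatch repair genes fell with every inhibitor. Msh6, which recognises a mispaired base, had 3.58, 3.28 and 3.22 FPKM with PD325901, 3.07, 2.56 and 2.35 FPKM with RAD001, 4.05, 2.75 and 2.76 FPKM with GDC0941, and 5.16, 6.39 and 5.5 FPKM with DMSO. Pms2, an endonuclease of mismatch repair, had 1.73, 1.66 and 2.05 FPKM with PD325901, 1.77, 1.48 and 1.69 FPKM with RAD001, 1.77, 1.86 and 1.44 FPKM with GDC0941, and 2.35, 2.70 and 2.41 FPKM with DMSO. For both genes no inhibitor library reached a DMSO library. Msh6 changed by -0.61 ± 0.13, -0.87 ± 0.13 and -0.68 ± 0.13 (adjusted p = 0.00287, 0.000719 and 0.00373 by limma) and Pms2 by -0.31 ± 0.10, -0.40 ± 0.10 and -0.37 ± 0.10 (adjusted p = 0.0270, 0.0127 and 0.0217). Each Pms2 call ended under quantile normalization and without DMSO replicate 2 (highest adjusted p over all its alternatives = 0.150 by limma), and Pms2 shares 363 exon bases with Gm42421 on its own strand.

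The base excision and single-strand break repair genes included Xrcc1, which had the largest log2 difference between inhibitors among the 33 genes. Of 5 tested members 4 fell and 1 (Xrcc1) rose with PD325901, 4 fell with RAD001 and 2 (Ung and Neil3) with GDC0941. Ung, the glycosylase that removes uracil from DNA, had 0.370, 0.580 and 0.649 FPKM with PD325901, 0.786, 0.694 and 0.335 FPKM with RAD001, 1.91, 0.955 and 0.972 FPKM with GDC0941, and 2.89, 3.52 and 3.94 FPKM with DMSO. Its mean was 0.155, 0.175 and 0.371 times the DMSO mean with PD325901, RAD001 and GDC0941, with no overlap. The log2 changes were -1.53 ± 0.18, -1.47 ± 0.18 and -0.98 ± 0.18 (adjusted p = 5.92e-05, 0.000207 and 0.00274 by limma). Ung was lower with PD325901 than with GDC0941 (-0.55 ± 0.18, adjusted p = 0.0223 by limma), a call that ended without GDC0941 replicate 1 or PD325901 replicate 1, with library weights and without replicate 1 of every group (highest adjusted p = 0.0813).

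Neil3, a glycosylase for oxidised bases that acts at replicating DNA, had 3.13, 3.06 and 3.34 FPKM with PD325901, 1.68, 1.57 and 1.58 FPKM with RAD001, 2.13, 1.64 and 1.57 FPKM with GDC0941, and 4.48, 4.77 and 4.89 FPKM with DMSO. PD325901 libraries lay between DMSO and the other inhibitors with no overlap. Neil3 changed by -0.45 ± 0.09, -1.13 ± 0.09 and -1.04 ± 0.09 (adjusted p = 0.00257, 2.62e-05 and 5.67e-05 by limma). With PD325901 it was higher than with RAD001 by 0.68 ± 0.09 (adjusted p = 0.000139) and than with GDC0941 by 0.59 ± 0.09 (adjusted p = 0.000353), by limma.

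Xrcc1, the scaffold on which single-strand breaks are mended, had 23.2, 15.6 and 15.4 FPKM with PD325901, 5.92, 5.39 and 5.24 FPKM with RAD001, 8.48, 7.24 and 8.28 FPKM with GDC0941, and 9.31, 11.2 and 10.3 FPKM with DMSO. The 4 groups did not overlap, with PD325901 highest and RAD001 lowest. Xrcc1 rose with PD325901 (0.74 ± 0.14, adjusted p = 0.0015) and fell with RAD001 (-0.79 ± 0.14, adjusted p = 0.00177), while its change with GDC0941 did not pass (-0.33 ± 0.14, adjusted p = 0.115), by limma. It was higher with PD325901 than with RAD001 by 1.53 ± 0.14 (adjusted p = 7.1e-06) and than with GDC0941 by 1.06 ± 0.14 (adjusted p = 9.07e-05), by limma. Without PD325901 replicate 1, the highest library, the rise against DMSO was 0.55 (adjusted p = 0.00224 by limma). GDC0941 was above RAD001 by 0.46 ± 0.14 (adjusted p = 0.0432), which ended with a pseudocount of 5 FPKM, with no limit on the mean, and without GDC0941 replicate 1 or 3 or RAD001 replicate 2 or 3 (highest adjusted p = 0.129).

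Lig3, the ligase that XRCC1 holds, ran the other way, with 2.90, 3.50 and 3.67 FPKM with PD325901, 5.64, 6.35 and 5.72 FPKM with RAD001, 5.55, 5.24 and 4.76 FPKM with GDC0941, and 5.24, 4.66 and 5.09 FPKM with DMSO. The PD325901 libraries were the 3 lowest. Lig3 was lower with PD325901 than with DMSO (-0.46 ± 0.10, adjusted p = 0.00233), RAD001 (-0.67 ± 0.10, adjusted p = 0.000161) and GDC0941 (-0.51 ± 0.10, adjusted p = 0.00102), by limma. Its exons share 1826 bases with Rffl on the other strand, so part of these reads could belong to that gene. Parp1, the enzyme that marks nicks with poly(ADP-ribose), had the highest mean of the 33 genes (22.5 FPKM). It had 21.0, 18.4 and 17.8 FPKM with PD325901, 20.1, 16.2 and 15.7 FPKM with RAD001, 31.5, 22.5 and 19.5 FPKM with GDC0941, and 27.2, 29.9 and 30.3 FPKM with DMSO. The PD325901 and RAD001 libraries lay below DMSO (-0.59 ± 0.15 and -0.72 ± 0.15, adjusted p = 0.00886 and 0.00493 by limma), whereas GDC0941 replicate 1 was above every DMSO library. Its change with GDC0941 did not pass (-0.26, adjusted p = 0.241), and without that library it did (-0.45, adjusted p = 0.0166 by limma).

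**Figure D3:**
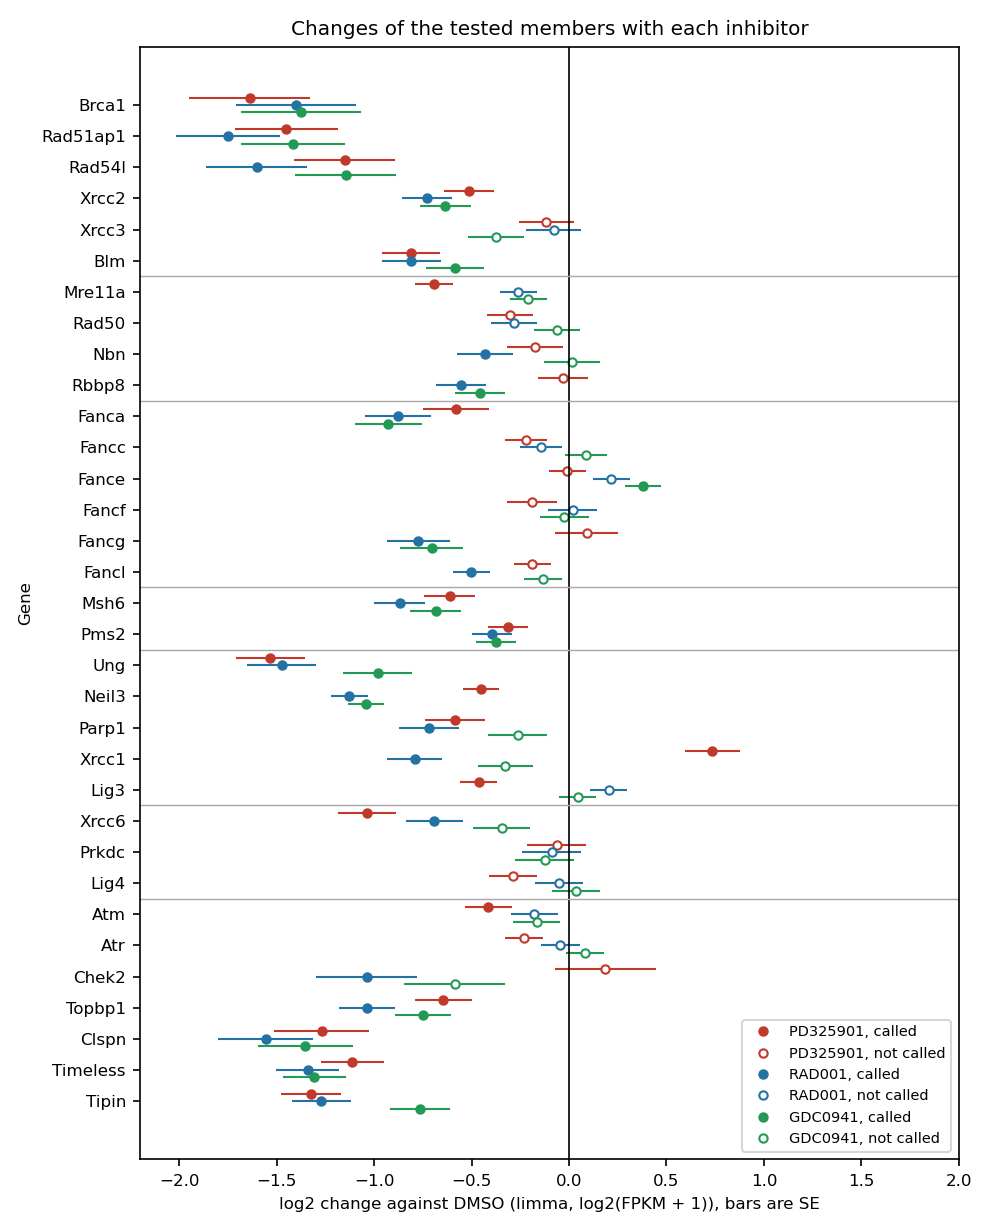
Log2 change of the 33 tested genes against DMSO on the scale of log2(FPKM + 1), by pathway, for PD325901, RAD001 and GDC0941; bars are SE, and filled points passed the adjusted p threshold of 0.05. The 3 inhibitors lie close together for Brca1, Clspn and Timeless and furthest apart for Xrcc1, Chek2 and Fancg.

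In end joining, 1 of 3 tested members, Xrcc6, fell with PD325901 and with RAD001 and 0 of 3 with GDC0941. The shares of all genes that fell were 28.2%, 15.9% and 12.7% with PD325901, RAD001 and GDC0941. With GDC0941 1 of 3 (Xrcc6) had an unadjusted p under 0.05 by limma. Xrcc6, the KU70 subunit of the ring that caps a broken end, had 3.39, 3.35 and 3.58 FPKM with PD325901, 5.91, 4.12 and 4.06 FPKM with RAD001, 7.87, 5.48 and 5.39 FPKM with GDC0941, and 7.57, 8.21 and 8.57 FPKM with DMSO. PD325901 libraries lay below all others, and GDC0941 replicate 1 lay within the DMSO range. Xrcc6 changed by -1.04 ± 0.15 with PD325901 (adjusted p = 0.000223), -0.69 ± 0.15 with RAD001 (adjusted p = 0.00475) and -0.35 ± 0.15 with GDC0941 (adjusted p = 0.110), by limma. Without GDC0941 replicate 1 the last was -0.50 and passed (adjusted p = 0.0153 by limma). It was lower with PD325901 than with GDC0941 (-0.69 ± 0.15, adjusted p = 0.00221), and it shares 282 exon bases with Desi1 on the other strand.

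Xrcc5, the KU80 subunit of the same ring, was listed at 0.561, 0.140 and 0.299 FPKM with PD325901, 0.576, 0.262 and 0.345 FPKM with RAD001, 0.545, 0.173 and 0.220 FPKM with GDC0941, and 0.585, 0.222 and 0.270 FPKM with DMSO. Replicate 1 was the highest library in each of the 4 groups, and Xrcc5 passed in no comparison in the fit without the limit. The mean of Xrcc5, 0.350 FPKM, stood beside 5.62 FPKM for Xrcc6, both per transcript length. The gene models used are not given, so whether the low value reflects the level of Xrcc5 RNA was not tested. Prkdc, the kinase that KU recruits, had 1.04, 1.38 and 1.5 FPKM with PD325901, 1.29, 1.21 and 1.27 FPKM with RAD001, 1.69, 1.32 and 0.707 FPKM with GDC0941, and 1.40, 1.37 and 1.43 FPKM with DMSO. The groups overlapped, apart from RAD001, which lay below DMSO, and the 95% intervals of the log2 changes were -0.40 to 0.27, -0.42 to 0.24 and -0.46 to 0.21.

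Lig4, the ligase of end joining, had 1.20, 1.11 and 1.33 FPKM with PD325901, 1.61, 2.04 and 1.24 FPKM with RAD001, 1.79, 1.92 and 1.62 FPKM with GDC0941, and 1.69, 1.5 and 1.93 FPKM with DMSO. The PD325901 libraries lay below those of GDC0941 and DMSO. Its change against DMSO did not pass with PD325901 (-0.29 ± 0.12, adjusted p = 0.0738 by limma). Polq, the polymerase of the alternative joining route and under the limit, had 0.238, 0.397 and 0.343 FPKM with PD325901, 0.218, 0.143 and 0.205 FPKM with RAD001, 0.389, 0.225 and 0.130 FPKM with GDC0941, and 0.966, 0.831 and 0.908 FPKM with DMSO. No inhibitor library came near DMSO, and in the fit without the limit its log2 changes were -0.52, -0.68 and -0.61 (adjusted p = 0.000485, 0.000304 and 0.000734 by limma).

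Among the checkpoint genes the mediators at the fork fell with every inhibitor, and of the kinase genes Atm fell with PD325901 and Chek2 with RAD001, while Atr passed with none. Of 7 tested members 5 fell with PD325901 (Atm, Topbp1, Clspn, Timeless and Tipin), 5 with RAD001 (Chek2 and the same mediators) and 4 with GDC0941 (the mediators). Tipin, the partner of Timeless that keeps the helicase and polymerase coupled, had 6.89, 8.25 and 8.57 FPKM with PD325901, 10.1, 6.54 and 8.35 FPKM with RAD001, 13.8, 10.2 and 12.5 FPKM with GDC0941, and 18.6, 22.9 and 22.5 FPKM with DMSO. Timeless had 1.68, 1.76 and 2.53 FPKM with PD325901, 1.72, 1.53 and 1.36 FPKM with RAD001, 2.34, 1.41 and 1.15 FPKM with GDC0941, and 4.99, 5.69 and 5.56 FPKM with DMSO. No inhibitor library of either gene reached DMSO.

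Tipin changed by -1.32 ± 0.15, -1.27 ± 0.15 and -0.76 ± 0.15 (adjusted p = 5.75e-05, 0.000201 and 0.00454 by limma) and was lower with PD325901 than with GDC0941 (-0.56 ± 0.15, adjusted p = 0.00956). Timeless changed by -1.11 ± 0.16, -1.34 ± 0.16 and -1.31 ± 0.16 (adjusted p = 0.000276, 0.000212 and 0.000377 by limma) and passed in no comparison between inhibitors. Clspn, whose protein Claspin hands CHK1 to ATR, averaged 1.08 ± 0.316, 0.727 ± 0.444 and 1.03 ± 0.748 FPKM with PD325901, RAD001 and GDC0941, against 4.0 ± 0.526 FPKM with DMSO. Topbp1, the activator of ATR, averaged 9.44 ± 1.33, 6.93 ± 0.589 and 8.76 ± 1.83 FPKM, against 15.3 ± 1.88 FPKM with DMSO (log2 changes -0.65, -1.04 and -0.75). These mediators all fell by limma under each alternative run for them.

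Atm, the kinase of double-strand breaks, had 0.882, 1.10 and 1.23 FPKM with PD325901, 1.69, 1.29 and 1.35 FPKM with RAD001, 1.73, 1.53 and 1.16 FPKM with GDC0941, and 1.75, 1.92 and 1.61 FPKM with DMSO. The PD325901 libraries lay below DMSO (-0.42 ± 0.12, adjusted p = 0.0152 by limma), a call that ended without PD325901 replicate 1 (0.0559) or DMSO replicate 2 (0.0588). Its difference between PD325901 and the other inhibitors did not pass (adjusted p = 0.123 and 0.105). Atr, the kinase of stalled forks, had 1.90, 2.02 and 2.01 FPKM with PD325901, 2.39, 2.33 and 2.43 FPKM with RAD001, 2.57, 3.12 and 2.43 FPKM with GDC0941, and 2.32, 2.35 and 2.82 FPKM with DMSO. PD325901 libraries were the 3 lowest, but the change against DMSO did not pass (-0.23 ± 0.10, adjusted p = 0.0750 by limma). Atr shares 462 exon bases with Gm16794 and 187 with 1700065D16Rik, both on the other strand.

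Chek2, the effector kinase of ATM, had 6.28, 5.81 and 5.63 FPKM with PD325901, 3.11, 1.46 and 1.54 FPKM with RAD001, 5.36, 2.05 and 2.39 FPKM with GDC0941, and 5.84, 4.71 and 4.71 FPKM with DMSO. The RAD001 libraries lay below all PD325901 and DMSO libraries, and GDC0941 replicate 1 lay within the DMSO range. Chek2 fell with RAD001 (-1.04 ± 0.26, adjusted p = 0.0111), while with PD325901 its change was 0.19 ± 0.26 (adjusted p = 0.585, 95% interval -0.38 to 0.76), by limma. It was higher with PD325901 than with RAD001 by 1.23 ± 0.26 (adjusted p = 0.00229 by limma). With GDC0941 the change was -0.59 ± 0.26 (adjusted p = 0.126), which passed without GDC0941 replicate 1 (-0.92, adjusted p = 0.00640 by limma). The difference between PD325901 and GDC0941 (0.77 ± 0.26, adjusted p = 0.0270) ended in 6 of 15 alternatives, among them those without any 1 of the PD325901 libraries or without GDC0941 replicate 2 or 3 (highest adjusted p = 0.107 by limma).

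Chek1, the effector kinase of ATR and under the limit, had 0.378, 0.186 and 0.410 FPKM with PD325901, 0.723, 0.239 and 0.270 FPKM with RAD001, 0.949, 0.383 and 0.306 FPKM with GDC0941, and 1.55, 1.80 and 1.82 FPKM with DMSO. Replicate 1 was highest with RAD001 and GDC0941, and no library reached DMSO. In the fit without the limit Chek1 changed by -1.04 ± 0.16, -0.97 ± 0.16 and -0.84 ± 0.16 (adjusted p = 0.00100, 0.00293 and 0.00767 by limma). In that fit the PD325901 against RAD001 difference was -0.08 ± 0.16 for Chek1.

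Between inhibitors, 9 to 14 of the 33 genes passed in the comparisons with PD325901 and 3 in GDC0941 against RAD001. PD325901 against RAD001 gave 2 lower (Mre11a and Lig3) and 7 higher (Rbbp8, Fancg, Fancl, Neil3, Xrcc1, Chek2 and Topbp1), where 29.4% of all genes were lower and 20.8% higher. After quantile normalization these became 4 lower and 7 higher, where over all genes 2572 were lower and 2639 higher. The 9 calls became 22 with library weights and 16 without replicate 1 of every group. The calls over all genes in this comparison under those settings are not given here. The Topbp1 difference (0.39 ± 0.14, adjusted p = 0.0419 by limma) ended with the replicate block (0.0544) and without PD325901 or RAD001 replicate 2 or 3, and the Fancl difference (0.31 ± 0.10, adjusted p = 0.0188) ended without PD325901 replicate 2 or 3 or RAD001 replicate 3 (highest adjusted p = 0.0726). PD325901 against GDC0941 gave 9 lower (Mre11a, Fancc, Fance, Ung, Lig3, Xrcc6, Lig4, Atr and Tipin) and 5 higher (Rbbp8, Fancg, Neil3, Xrcc1 and Chek2), where 30.7% of all genes were lower and 20.9% higher. Without PD325901 replicate 1 these 14 calls became 9. Those of Fancc, Lig4 and Atr ended in 9, 10 and 4 of their 15 alternatives, among them leaving out single PD325901 or GDC0941 libraries (highest adjusted p = 0.105, 0.124 and 0.0733 by limma).

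GDC0941 against RAD001 gave 0 lower and 3 higher (Fancl, Xrcc1 and Tipin), where 9.35% of all genes were lower and 8.09% higher. With an unadjusted p under 0.05 by limma, 7 were higher and 0 lower. The share of all genes at that threshold is not given here. With the replicate block 5 were higher, Nbn (0.45 ± 0.14, adjusted p = 0.0533 without the block and 0.0266 with it, by limma) and Parp1 (0.46 ± 0.15, adjusted p = 0.0623 and 0.0307) joining. Without RAD001 replicate 1 6 were higher, without RAD001 replicate 2 1, and without RAD001 replicate 3 or GDC0941 replicate 1 0. Without replicate 1 of every group, an alternative chosen after seeing the data, 9 were higher.

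Genes of DNA replication and mitosis fell beside the repair genes, with lower medians. Of 29 tested replication genes 25, 28 and 26 fell with PD325901, RAD001 and GDC0941, at medians of -0.99, -1.27 and -1.01, and of 23 mitosis genes 21, 23 and 23 fell, at medians of -1.16, -1.85 and -1.53. In each list 0 rose by limma, also at an unadjusted p under 0.05. Examples were the primase gene Prim1 with RAD001 (1.89 ± 0.405 FPKM, against 7.64 ± 0.835 with DMSO) and the mitotic kinase gene Aurka with PD325901 (4.03 ± 0.346, against 12.1 ± 0.547 FPKM with DMSO). Library by library, the median of the 33 repair and checkpoint genes was -0.47, -0.41 and -0.36 with PD325901, -0.56, -0.79 and -0.79 with RAD001, -0.33, -0.45 and -0.55 with GDC0941, and -0.09, 0.03 and 0.05 with DMSO, as the difference from the DMSO mean of log2(FPKM + 1). The part that fewer cycling cells had in the fall of the repair genes was not tested.

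**Figure D4:**
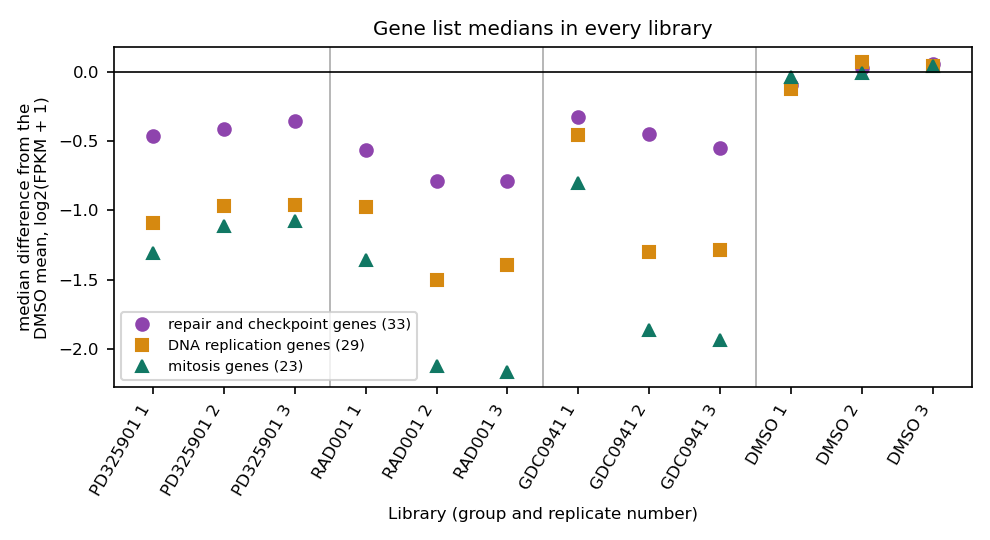
Median difference from the DMSO mean, log2(FPKM + 1), in each library (x axis) for the 33 repair and checkpoint genes, 29 DNA replication genes and 23 mitosis genes. In every inhibitor library the repair and checkpoint median is the one nearest 0, and GDC0941 replicate 1 is the highest inhibitor library for all 3 lists.

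Other genes of the same pathways, which were not on the list, were counted in the same way. All counts of further lists below stand beside the shares of all genes that passed. With PD325901, RAD001 and GDC0941 28.2%, 15.9% and 12.7% of all genes fell, and 18.4%, 15.4% and 11.6% rose. Of 12 further recombination genes 5 fell and 1 rose with PD325901, 5 fell with RAD001 and 4 with GDC0941, at medians of 0.03, -0.06 and -0.17. Eme1, a subunit of a nuclease that cuts joined strands, averaged 0.648 ± 0.218 FPKM with RAD001 and 0.906 ± 0.272 FPKM with GDC0941, against 2.97 ± 0.0380 FPKM with DMSO (log2 changes -1.28 and -1.07). Of 5 further mismatch repair genes 3 fell with PD325901, 1 fell and 1 (Msh3, 0.45) rose with RAD001, and with GDC0941 0 of 5 passed (1 at an unadjusted p under 0.05 by limma).

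Of 15 further base excision genes 5 fell and 1 rose with PD325901, 4 fell and 1 rose with RAD001, and 3 fell and 1 rose with GDC0941. The replicative ligase Lig1 averaged 2.47 ± 1.29 FPKM with RAD001 and 3.84 ± 2.44 with GDC0941, against 12.2 ± 0.351 FPKM with DMSO, and the flap endonuclease Fen1 fell with all 3 (-0.94, -1.17 and -0.82). Nucleotide excision repair, which cuts out bulky lesions, had 7 of 16 genes lower and 2 higher with PD325901, 2 lower and 2 higher with RAD001, and 0 lower (1 at an unadjusted p under 0.05 by limma) and 1 (Ercc6, 0.49) higher with GDC0941. The damage sensor Ddb1 averaged 39.3 ± 1.67 FPKM with PD325901, against 68.3 ± 1.61 FPKM with DMSO. Rad23b, another gene of this pathway, averaged 23.3 ± 0.608 FPKM with PD325901, against 43.1 ± 2.69 FPKM with DMSO.

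Among 12 translesion synthesis genes 3, 2 and 2 fell with PD325901, RAD001 and GDC0941, near the shares of all genes (28.2%, 15.9% and 12.7%). The ubiquitin ligase Rad18 fell with each (-0.89, -0.73 and -0.66). Of 7 further end joining genes 1 fell and 1 (Polm, 0.43) rose with PD325901, 1 fell with RAD001 (Poll, -0.30) and 1 with GDC0941 (Dclre1c, which encodes Artemis, -0.48). Of 13 further damage checkpoint genes 6 fell with PD325901, 6 with RAD001, and 3 fell and 1 rose with GDC0941. The phosphatase gene Cdc25c, a target of the checkpoint kinases, fell with all 3 (-0.96, -1.30 and -1.20).

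The p53 target genes, which damage signalling induces, did not move one way. Of 16 tested 5 fell and 2 rose with PD325901, 2 fell and 3 rose with RAD001, and 3 fell and 1 rose with GDC0941. These counts lay near the shares of all genes. Those were 28.2% lower and 18.4% higher with PD325901, 15.9% and 15.4% with RAD001, and 12.7% and 11.6% with GDC0941. Aen, a nuclease gene, averaged 9.37 ± 0.10 FPKM with PD325901, against 14.8 ± 1.18 FPKM with DMSO, and the stress response gene Sesn2 averaged 11.1 ± 0.902 with RAD001 and 7.01 ± 0.442 with GDC0941, against 19.7 ± 1.60 FPKM with DMSO. Of 15 E2F and related factor genes 8 fell and 2 rose with PD325901, and 7 fell and 0 rose with RAD001 and with GDC0941. E2f3, an activating factor, averaged 2.08 ± 0.112 FPKM with PD325901, against 4.90 ± 0.274 FPKM with DMSO, and E2f2 2.36 ± 0.306 with GDC0941, against 7.42 ± 0.684 FPKM with DMSO.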

How the data were processed

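RNA was prepared with RNeasy columns (Qiagen) and made into libraries by a standard Illumina protocol, per the labels' protocols. The authors deposited 1 table of FPKM values. Per the submitters' processing notes, the tools were TopHat2 2.0.4 and Cuffdiff on mm9. Which gene models, scaling and strand setting were used is not given in the sources used here. Depth per library is therefore known only in relative terms, and no counting intervals are given.

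Genes averaging 1 FPKM or more were tested with limma 3.58.1 in R 4.3.3 on log2(FPKM + 1), a pseudocount of 1, with 4 group means, a variance trend, 8 residual degrees of freedom and Benjamini-Hochberg adjustment over 10305 genes in each of 6 comparisons. The procedure was run on simulated data, whose outcome is not given here. Noise in that simulation was independent between libraries, so it could not test the shared deviations described below. Members and gene lists were chosen with earlier results of these data known. Values were given per library for the leading genes of each repair route, and in further lists the 2 genes with the lowest adjusted p per comparison could be named. Libraries with the same replicate number deviated together in 4 comparisons (lowest correlation of deviations across genes 0.183 for PD325901 and 0.201 for RAD001 against DMSO, 0.149 for PD325901 and 0.309 for GDC0941 against RAD001), and a replicate block was fitted as an alternative. The other alternatives were pseudocounts of 0.1 and 5 FPKM, no limit or a limit of 5 FPKM on the mean, a fit to the 2 groups alone, library weights, median-ratio scaling, quantile normalization, each library left out in turn and, chosen after seeing the data, replicate 1 of every group left out. Promoters are from RefSeq, and shared exon bases were computed from the GENCODE mouse annotation. Overlaps not given above were, on the other strand, Fancm 572 bases (Gm47870), Timeless 111 (Gm26847), Brca2 41 (Gm42529) and Msh6 34 (Fbxo11). On the same strand they were Pms2 58 (Rsph10b) and Parp1 7 (Mir6904). Some genes of the further lists and marker lists are counted but not reported here by name.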

Additional observations from a re-analysis of the deposited data

How the results depend on the processing

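Of the log2 changes of the 33 genes in the 6 comparisons, 2712 values kept direction and side of the threshold under the alternatives, 98 no longer passed, 98 newly passed and 122 changed sign. The sign changes fell in 47 of the 198 results, whose reported sizes were at most 0.26, and 120 of them passed the threshold in neither fit. The other 2 were Rad54l in PD325901 against GDC0941 without replicate 1 of every group (0.44, against -0.01 with every library) and Tipin in PD325901 against RAD001 with library weights (0.23, against -0.05 unweighted). With a limit of 5 FPKM on the mean, 10 of the 33 genes could be tested. Of these, 6 were called with PD325901, 8 with RAD001 and 4 with GDC0941 against DMSO. There were 5 calls in PD325901 against RAD001 and 6 in PD325901 against GDC0941. Over all genes that limit gave 1469 higher and 2281 lower with PD325901, 1377 and 1102 with RAD001, and 997 and 814 with GDC0941. It gave 1518 higher and 2556 lower in PD325901 against RAD001, and 1557 and 2639 in PD325901 against GDC0941. GDC0941 against RAD001 (3 calls) gave 1 with no limit on the mean, 5 with median-ratio scaling, 6 with quantile normalization, 1 with only the 2 groups, 5 with the replicate block, 6 with library weights and 9 without replicate 1 of every group. PD325901 against RAD001 (9 calls) gave 22 with library weights and 16 without replicate 1 of every group, and its calls over all genes under those settings are not given here.

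With 1 library left out, the calls among the 33 ranged from 17 to 20 for PD325901, 20 to 22 for RAD001 and 14 to 21 for GDC0941 against DMSO, 7 to 10 for PD325901 against RAD001, 9 to 15 for PD325901 against GDC0941 and 0 to 6 for GDC0941 against RAD001. Over all genes the range was 1659 to 3140 for GDC0941 against DMSO, lowest without DMSO replicate 2, and 959 to 1985 for GDC0941 against RAD001, with 959 and 973 without RAD001 replicate 2 and 3. Library weights gave 3849 calls for GDC0941 and 6923 for RAD001 against DMSO and 3048 for GDC0941 against RAD001, where the deposited values gave 2503, 3224 and 1798. Without replicate 1 of every group these were 4321, 4845 and 3428, and with only the 2 groups GDC0941 against RAD001 gave 701.

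Log2 changes of opposite sign to the reported ones are given here by comparison. In PD325901 against DMSO they were, with library weights Prkdc 0.0068 and Rbbp8 0.041, with median-ratio scaling Fance 0.055 and Rbbp8 0.034, after quantile normalization Fance 0.11, Prkdc 0.076, Rbbp8 0.087 and Xrcc3 0.0093, without replicate 1 of every group Prkdc 0.024 and Rbbp8 0.051. In RAD001 against DMSO they were, with library weights Lig4 0.059, after quantile normalization Atm 0.0017, Atr 0.12, Fancc 0.060, Lig4 0.13, Prkdc 0.097 and Xrcc3 0.085. In GDC0941 against DMSO they were, with library weights Fancc -0.012, with median-ratio scaling Nbn -0.0011, after quantile normalization Atm 0.015, Fancf 0.14, Prkdc 0.071 and Rad50 0.024, without replicate 1 of every group Nbn -0.058. In PD325901 against RAD001 they were, with library weights Blm 0.076, Brca1 0.0083 and Tipin 0.23, with median-ratio scaling Blm 0.043, Rad50 0.038, Tipin 0.014 and Xrcc3 0.014, after quantile normalization Prkdc -0.021 and Tipin 0.030, without replicate 1 of every group Blm 0.18, Brca1 0.062, Rad50 0.0076, Tipin 0.16 and Ung 0.10. In PD325901 against GDC0941 they were, with library weights Brca1 0.0084, Fancl 0.025, Rad51ap1 0.24 and Rad54l 0.26, with median-ratio scaling Fancl 0.022, Rad51ap1 0.024 and Rad54l 0.054, with a pseudocount of 0.1 FPKM Rad54l 0.038, without replicate 1 of every group Brca1 0.21, Fancl 0.016, Rad51ap1 0.28 and Rad54l 0.44. In GDC0941 against RAD001 they were, with library weights Brca1 -9.2e-05, Fancg -0.066, Lig4 -0.018, Rbbp8 -0.060, Timeless -0.032 and Xrcc2 -0.062, with a pseudocount of 0.1 FPKM Brca1 -0.054, without replicate 1 of every group Brca1 -0.14, Fancg -0.036, Rbbp8 -0.071, Timeless -0.099 and Xrcc2 -0.066. With 1 library left out, further log2 changes crossed 0, and their lowest to highest values follow. For PD325901 against DMSO the ranges were Fance -0.072 to 0.059, Prkdc -0.12 to 0.023 and Rbbp8 -0.11 to 0.070. For RAD001 against DMSO the ranges were Atr -0.080 to 0.021, Fancf -0.033 to 0.079 and Lig4 -0.16 to 0.061. For GDC0941 against DMSO the ranges were Fancf -0.090 to 0.099, Lig4 -0.018 to 0.097, Nbn -0.078 to 0.13, Prkdc -0.27 to 0.059 and Rad50 -0.13 to 0.071. For PD325901 against RAD001 the ranges were Blm -0.11 to 0.093, Brca1 -0.38 to 0.0030, Prkdc -0.033 to 0.11, Rad50 -0.057 to 0.042, Tipin -0.20 to 0.079 and Ung -0.19 to 0.023. For PD325901 against GDC0941 the ranges were Brca1 -0.52 to 0.15, Clspn -0.083 to 0.37, Msh6 -0.0015 to 0.21, Pms2 -0.0060 to 0.11, Prkdc -0.12 to 0.21, Rad51ap1 -0.22 to 0.24 and Rad54l -0.21 to 0.32. For GDC0941 against RAD001 the ranges were Atm -0.062 to 0.11, Brca1 -0.39 to 0.29, Clspn -0.082 to 0.41, Fanca -0.25 to 0.070, Fancf -0.11 to 0.081, Fancg -0.12 to 0.23, Lig4 -0.024 to 0.20, Mre11a -0.025 to 0.091, Neil3 -0.0020 to 0.14, Pms2 -0.023 to 0.092, Prkdc -0.18 to 0.15, Rbbp8 -0.031 to 0.21, Timeless -0.15 to 0.17 and Xrcc2 -0.013 to 0.18.

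The replicate block changed calls in GDC0941 against RAD001 (5 in place of 3) and of Topbp1, and, where the numbers did not deviate together (GDC0941 against DMSO, lowest correlation 0.0354, and PD325901 against GDC0941, -0.139), those of Chek2 and Xrcc3 (adjusted p = 0.0255 and 0.0397) and Lig4 (0.0548), all by limma. It changed no other call among the 33. With 3 libraries per group and no counts, genes under 1 FPKM are the least certain.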
